A study of Rattus norvegicus with 24 samples.

Results

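The 10 genes described here encode secreted angiogenic factors, the endothelial receptors that bind them, and a sensor enzyme of the hypoxia pathway: Vegfa, Flt1, Kdr, Tie1, Tek, Angpt1, Angpt2, Angptl4, Adm and Egln3. Each gene was read from the probe set whose only platform gene symbol was that gene, and from the brightest of them over all arrays where there were several, so that they are 10 of the 14218 genes measured. Total RNA came from the T7 segment of the spinal cord of female Wistar rats and was hybridised to 24 Affymetrix GeneChip arrays, each with the RNA of 1 rat. In the injured rats a 35 g aneurysm clip was closed on the exposed cord for 1 min, and tissue was taken 1, 3, 7, 14 or 56 days later, with 4 rats on each day. The 4 sham rats had the laminectomy and no clip, and no source used here gives the day on which they were sampled. Different rats made up each group, the 5 comparisons with sham share the same 4 sham arrays, and neighbouring comparisons between days share a group. By the methods, surgery was done under halothane, and an antibiotic (Clavamox, for 7 days), analgesia and saline followed it. The labels name no engineered allele.

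Vessels of the cord are built and maintained by a few ligand and receptor systems. VEGF-A signals to endothelial cells mainly through Kdr (VEGFR-2), while Flt1 (VEGFR-1) binds the same ligand tightly, signals weakly and also exists as a soluble trap. Angiopoietin-1 from mural cells activates the receptor Tek (Tie2) and keeps vessels quiet, angiopoietin-2 from endothelial cells usually opposes it, and Tie1 is the partner receptor of Tek with no settled ligand of its own. Adrenomedullin (Adm) and angiopoietin-like 4 (Angptl4) are secreted proteins that cells make more of in low oxygen, and Egln3 (PHD3) is a prolyl hydroxylase that marks HIF-alpha subunits for removal and is itself raised by HIF in many cells.

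All values are log2 expression summaries made by the authors with GCRMA, and a log2 difference of 1 is a doubling. The methods state that pre-processing was done for one time point at a time, so pre-processing and day cannot be told apart. A change was called when its limma p, adjusted by the Benjamini-Hochberg method over all probe sets with 1 symbol, was under 0.05, and the p-values measure only the spread between these rats. Arrays of one group correlated at 0.973 to 0.996, and the lowest mean correlations with their own group were those of day 7 replicates 2 and 3 (both 0.983) and day 14 replicate 3 (0.985), so results that change without these arrays are given with and without them. The 27 control probe sets with no target had array means of 2.62 to 2.91, and the neuronal marker list, a check of the labelled tissue, had means of 12.0 to 12.4 on the sham arrays. In bulk tissue, fewer cells of a type and less RNA per cell cannot be told apart.

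On day 1, 4 of the 10 genes were higher than sham and 3 were lower, beside 28.9% of all genes called higher and 20.4% called lower. Tie1, Angpt2, Angptl4 and Adm rose, whereas Vegfa, Flt1 and Egln3 fell. On day 3, 4 rose (Flt1, Angpt2, Angptl4 and Adm) and only Angpt1 fell, against 23.7% of all genes higher and 16.7% lower. On day 7, 3 rose (Tie1, Angptl4 and Adm) and 4 fell (Vegfa, Flt1, Angpt1 and Egln3), against 23.5% and 30.0% of all genes. On day 14 Angptl4 and Angpt2 rose and Vegfa and Egln3 fell, with 15.8% of all genes higher and 16.3% lower. On day 56 Angptl4 and Adm rose and Vegfa and Egln3 fell, with 16.1% higher and 15.9% lower. The median change of the 10 genes was -0.25, 0.22, -0.47, -0.37 and -0.21 on the 5 days in turn, where the median over all genes was 0.01, -0.04, -0.05, 0.03 and -0.02. The receptors Kdr and Tek were called on none of the 5 days.

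Between consecutive days most of the movement lay around day 3. From day 1 to day 3, 6 of the 10 genes moved, beside 35.4% of all genes in either direction: Vegfa, Flt1 and Egln3 upwards, and Tie1, Angptl4 and Adm downwards. From day 3 to day 7, 5 moved, beside 29.9% of all genes: Tie1 upwards, and Vegfa, Flt1, Angpt2 and Egln3 downwards. From day 7 to day 14 only Angpt1 passed, where 28.0% of all genes did. From day 14 to day 56 limma called 0 of the 10, beside 0.338% of all genes, and a t-test without eBayes moderation at an unadjusted threshold called 1.

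**Figure D1:**
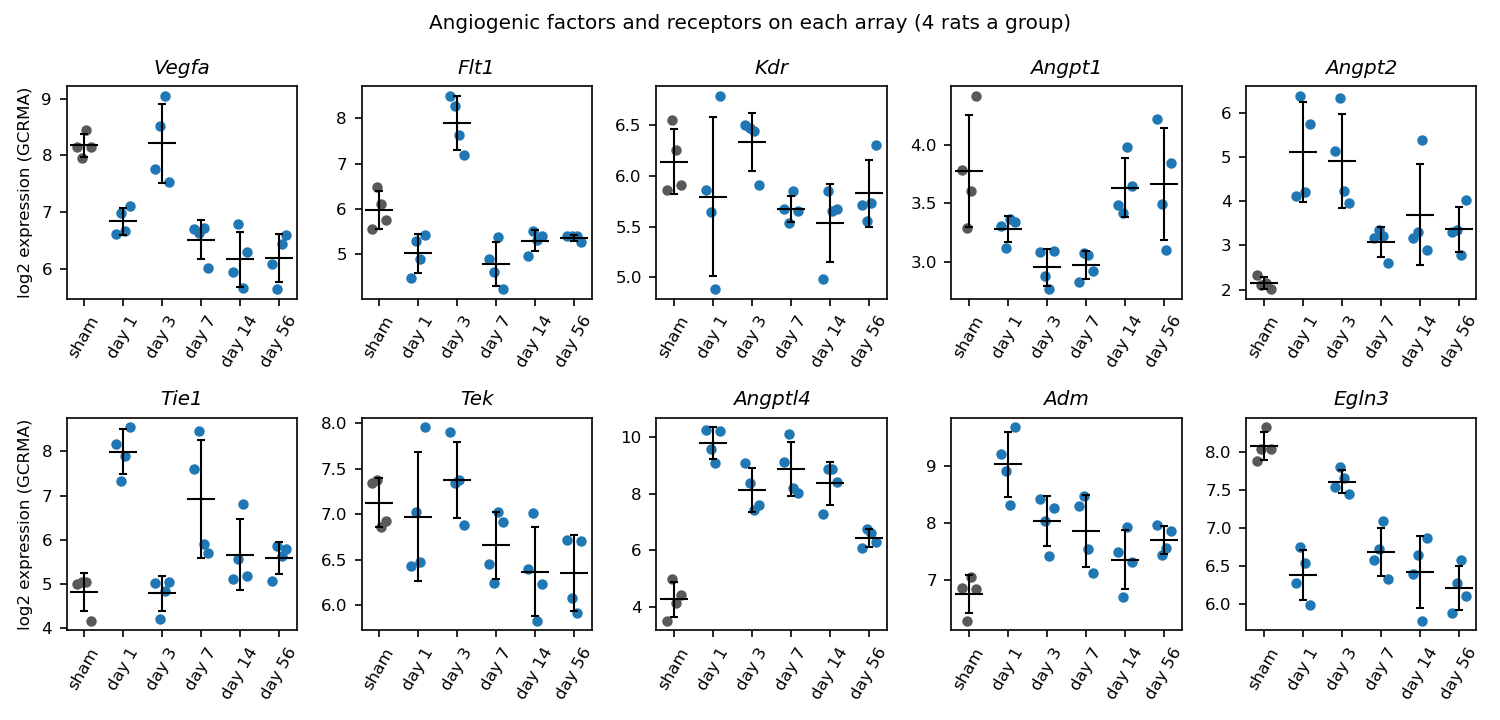
Log2 expression (y axis, a separate scale in each panel) of the 10 genes on every array, by group on the x axis, with 4 rats a group; points are arrays, horizontal marks are group means and error bars are SD. Flt1 stands highest on day 3, from 7.19 to 8.50, Tie1 on day 1, from 7.34 to 8.55, and the Angptl4 values of all injured rats lie above those of the sham rats.

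Vegfa, the principal ligand of the VEGF system, fell on 4 of the 5 days and stood at the sham level on day 3. In sham, the arrays read 8.14, 7.95, 8.45 and 8.15. On day 1 the arrays read 6.60, 6.97, 6.66 and 7.10, and on day 3 they read 7.75, 8.51, 9.05 and 7.53. All day 1 values lay below all sham values, and the day 3 values spread to both sides of them. The values were 6.70, 6.62, 6.71 and 6.01 on day 7, 5.94, 6.78, 5.65 and 6.29 on day 14, and 6.09, 5.64, 6.44 and 6.59 on day 56. None of these 12 later values reached the lowest sham array. Against sham, the log2 change was -1.34 on day 1 (SE 0.30, adjusted p = 0.00085), 0.04 on day 3 (adjusted p = 0.93), -1.66 on day 7 (0.00019), -2.01 on day 14 (4.0e-05) and -1.99 on day 56 (4.6e-05). The last of these is a level 3.96-fold below sham. The rise from day 1 to day 3 was 1.38 (adjusted p = 0.0014) and the fall from day 3 to day 7 was -1.70 (adjusted p = 0.00023). In order of level, day 3 and sham overlapped at the top, sham did not overlap day 1, and day 1, day 7, day 56 and day 14 overlapped each in turn. The dimmer of the gene's 2 probe sets had changes of the same sign, smaller on every day but day 3, of -0.25, 0.42, -0.37, -0.30 and -0.36, of which none was called. Its means of 3.53 in sham and 3.16 on day 7 lay near the brightest control probe set (3.22). The sizes of its falls, and of those in the mean of both probe sets, are therefore not exact. The mean of both probe sets was called lower on days 1, 7, 14 and 56, at -0.79, -1.01, -1.16 and -1.17.

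Egln3, the oxygen sensor, was lowered on the same 4 days as Vegfa. Its sham arrays read 7.88, 8.04, 8.33 and 8.04, its day 1 arrays 6.27, 6.75, 6.53 and 5.98, and its day 3 arrays 7.54, 7.80, 7.66 and 7.44. No day 3 array reached the lowest sham array, and every day 3 array was above every day 1 array. The later values were 6.57, 6.72, 7.09 and 6.33 on day 7, 6.39, 6.64, 5.78 and 6.87 on day 14, and 5.88, 6.28, 6.57 and 6.10 on day 56. The log2 change was -1.69 on day 1 (SE 0.21, adjusted p = 2.0e-06), -1.40 on day 7 (4.0e-05), -1.65 on day 14 (1.0e-05) and -1.87 on day 56 (2.8e-06). On day 3 it was -0.46 and missed the threshold (adjusted p = 0.092), although the groups did not overlap. It was called in the fit of these 2 groups alone (adjusted p = 0.016), after quantile normalization (-0.57, adjusted p = 0.034) and without the 3 arrays of low correlation (-0.46, adjusted p = 0.039). The t-test without eBayes moderation called it as well, without adjustment. The step up from day 1 to day 3 was 1.23 (adjusted p = 0.00022) and the step down to day 7 was -0.93 (adjusted p = 0.0025). Over the 24 arrays Vegfa and Egln3 correlated at r = 0.870, the highest value among the 10 genes, given as a description since the arrays share groups and pre-processing.

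The promoters of Vegfa and Egln3 are shown because these 2 genes moved together, as the 250 bases before the RefSeq start (build GRCr8), 5′ to 3′ on the gene's strand. Vegfa lies on chr9:22452854-22468194 and has a second start in the table, further into the gene, which is not shown. Capitals mark the SP1 box GGGCGG.
Vegfa, chr9:22452604-22452853, plus strand: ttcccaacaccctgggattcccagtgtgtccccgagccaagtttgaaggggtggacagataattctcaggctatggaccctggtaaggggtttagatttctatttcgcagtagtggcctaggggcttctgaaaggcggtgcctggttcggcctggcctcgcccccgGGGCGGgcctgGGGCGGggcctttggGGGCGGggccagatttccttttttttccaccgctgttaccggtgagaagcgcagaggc
Egln3, chr6:77411016-77411265, minus strand: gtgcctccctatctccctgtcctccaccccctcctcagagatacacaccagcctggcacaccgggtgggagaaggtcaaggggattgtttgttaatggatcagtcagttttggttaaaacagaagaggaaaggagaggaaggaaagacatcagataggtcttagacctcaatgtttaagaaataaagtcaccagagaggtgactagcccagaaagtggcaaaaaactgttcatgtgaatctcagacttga
The Vegfa window holds GGGCGG 3 times, at bases -84 to -79, -73 to -68 and -58 to -53 before the start, a box found in 30.5% of the 33469 promoters of the table on one strand or the other. The Egln3 window holds none of the 4 motifs searched on both strands, which were GGGCGG, the hypoxia response element core ACGTG (16.6% of promoters), its second form GCGTG (25.9%) and the ETS-type core CAGGAA (24.7%). The core ACGTG occurred in 1 of the 7 genes with a promoter in the table, Angptl4, at bases -230 to -226, and GCGTG occurred in Flt1 once and in Kdr at 2 places. CAGGAA occurred in none of the 7, and GGGCGG in Adm, Angptl4, Flt1, Kdr, Tie1 and Vegfa. Each match or absence is a description of these letters in this window. Bases outside the window were not searched, and Tek, Angpt1 and Angpt2 had no entry.

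Flt1, the high-affinity VEGF receptor, was the gene with the sharpest single peak. Its sham arrays read 5.55, 6.48, 6.12 and 5.75, its day 1 arrays 4.47, 5.29, 4.90 and 5.43, and its day 3 arrays 8.50, 8.27, 7.63 and 7.19. Every day 3 array was above every other array of the study. On day 7 the values were 4.90, 4.60, 5.38 and 4.23, on day 14 they were 4.97, 5.53, 5.31 and 5.40, and on day 56 they were 5.40, 5.40, 5.39 and 5.27. All day 1, day 7, day 14 and day 56 arrays lay below the lowest sham array. Against sham, the log2 change was 1.92 on day 3 (SE 0.28, adjusted p = 2.1e-05), a 3.79-fold higher level, between falls of -0.95 on day 1 (adjusted p = 0.0086) and -1.20 on day 7 (adjusted p = 0.0022). On days 14 and 56 the changes were -0.67 (adjusted p = 0.085) and -0.61 (adjusted p = 0.12). The step from day 1 to day 3 was 2.87 (adjusted p = 5.2e-07) and that from day 3 to day 7 was -3.12 (adjusted p = 1.1e-07). The other 2 probe sets of Flt1 gave 1.26 (called) and 0.59 (adjusted p = 0.215) on day 3, and on day 7 they gave -0.47 (not called) and -1.02 (adjusted p = 0.040). On day 1 they gave -0.15 (adjusted p = 0.72) and -0.69 (adjusted p = 0.18), so neither was called. The first of them had a sham mean of 3.34, near the brightest control probe set (3.22). Taken as the mean of its 3 probe sets, Flt1 rose by 1.26 on day 3 and fell by 0.60 on day 1, both called, and its change of -0.60 on day 14 was called as well (adjusted p = 0.027).

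Kdr, the main signalling receptor for VEGF-A, was not called on any day. The sham arrays read 5.86, 6.55, 6.25 and 5.91, the day 1 arrays 5.86, 5.65, 4.88 and 6.79, and the day 3 arrays 6.50, 6.47, 6.45 and 5.91. The later days gave 5.67, 5.54, 5.85 and 5.65 (day 7), 4.98, 5.85, 5.65 and 5.67 (day 14), and 5.71, 5.56, 5.73 and 6.31 (day 56). All day 7 and day 14 arrays lay below the lowest sham array, each group overlapped its neighbour in order of level, and day 1 had the widest spread. The 95% intervals of the log2 change ran from -0.96 to 0.26 on day 1, -0.42 to 0.80 on day 3, -1.07 to 0.14 on day 7, -1.21 to 0.01 on day 14 and -0.92 to 0.29 on day 56. Without day 1 replicate 4 the day 1 change was -0.68 in place of -0.35 and was called (adjusted p = 0.033). A second Kdr probe set lay at the level of the control probe sets, where a change of -0.09 on day 7 was called (adjusted p = 0.011).

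**Figure D2:**
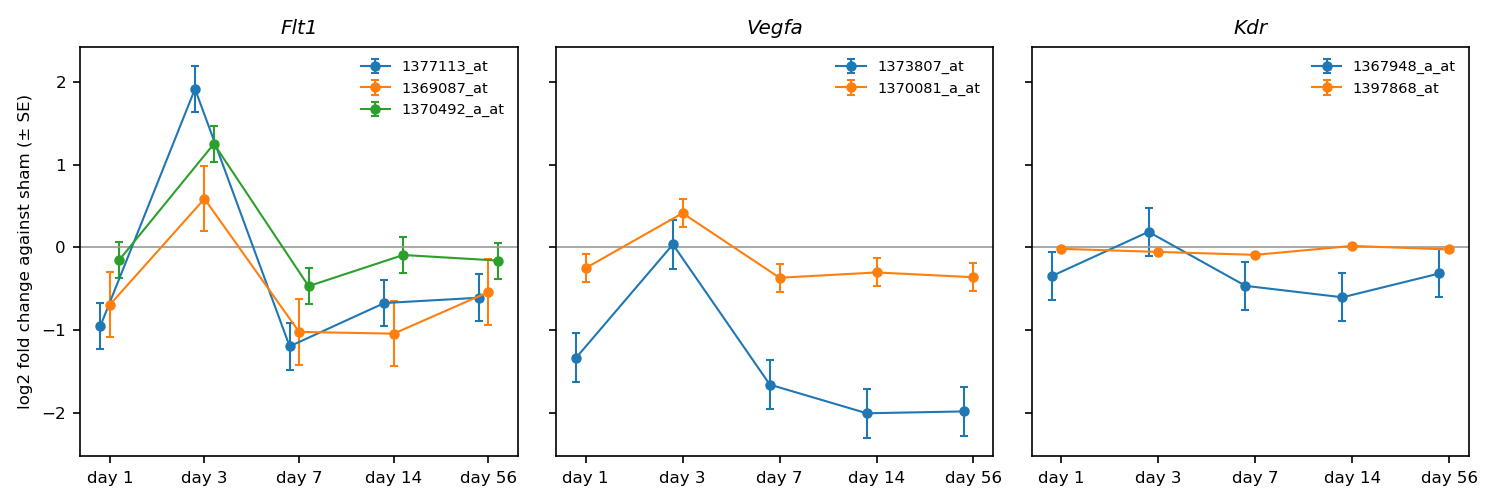
Log2 fold change against sham (y axis, ± SE) on each day for every probe set of Flt1 (3 probe sets), Vegfa (2) and Kdr (2), 4 rats a group. All 3 Flt1 probe sets are highest on day 3, between 0.59 and 1.92, the second Kdr probe set stays within 0.09 of 0, and the second Vegfa probe set is closer to 0 than the first on every day but day 3, where it is at 0.42.

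Angpt1, the stabilising ligand of Tek, was dim and fell on days 3 and 7. In sham, the arrays read 3.79, 3.29, 3.61 and 4.42, and the day 3 and day 7 arrays read 3.08, 2.89, 2.77 and 3.09, and 2.84, 3.08, 3.07 and 2.93. All 8 lay below the lowest sham array and near the level of the control probe sets, so the sizes that follow are not exact. The log2 change was -0.82 on day 3 (SE 0.21, adjusted p = 0.0045) and -0.80 on day 7 (adjusted p = 0.0052). It was -0.49 on day 1 (adjusted p = 0.066), -0.14 on day 14 and -0.11 on day 56. The arrays read 3.31, 3.12, 3.37 and 3.34 on day 1, 3.48, 3.42, 3.98 and 3.65 on day 14, and 4.22, 3.50, 3.11 and 3.85 on day 56, the last 2 days overlapping sham. The return from day 7 to day 14 was 0.66 (adjusted p = 0.024). It was not called without the 3 arrays of low correlation (0.64, adjusted p = 0.11), without day 7 replicate 1 (0.61, adjusted p = 0.067) or 4 (0.64, adjusted p = 0.054), without day 14 replicate 3 (0.54, adjusted p = 0.081), or after quantile normalization (0.53, adjusted p = 0.18).

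Angpt2, the context-dependent antagonist that endothelial cells store and release, rose from a level at or below the control probe sets. The sham arrays read 2.32, 2.09, 2.14 and 2.01. The day 1 arrays read 4.13, 6.39, 4.20 and 5.74, and the day 3 arrays 5.14, 6.32, 4.23 and 3.96. The values were 3.16, 3.35, 3.20 and 2.59 on day 7, 3.16, 3.31, 5.38 and 2.90 on day 14, and 3.29, 3.35, 2.79 and 4.03 on day 56. Each of the 20 injured arrays was above each sham array, and day 1, day 3 and day 14 were the most spread. The fitted log2 change was 2.97 on day 1 (SE 0.57, adjusted p = 0.0002) and 2.77 on day 3 (adjusted p = 0.00064). With each sham array raised to the mean of its own control probe sets, the mean level was 4.996-fold higher on day 1 and 4.35-fold higher on day 3. By the same measure it was 1.22-fold higher on day 7, 1.86-fold on day 14 and 1.49-fold on day 56. These ratios include no sampling error. The 95% intervals of the fitted log2 change began at 1.79 on day 1 and 1.59 on day 3. On days 7 and 56 the changes of 0.94 (adjusted p = 0.17) and 1.22 (adjusted p = 0.12) were not called, though the fit of 2 groups alone called both (adjusted p = 0.0084 and 0.0075). The change of 1.55 on day 14 (adjusted p = 0.0465) rested on replicate 3: without that array it was 0.98 (adjusted p = 0.22). That call was also lost on leaving out any 1 sham array or day 14 replicate 2, and in the fit of 2 groups (adjusted p = 0.073). The same held for the t-test without eBayes moderation after adjustment (0.056), quantile normalization (0.054) and median centring (0.0502). The fall from day 3 to day 7, -1.84 (adjusted p = 0.020), was not called without day 3 replicate 2 (-1.37, adjusted p = 0.091) or day 7 replicate 4 (-1.67, adjusted p = 0.058).

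Tie1, the partner receptor of Tek, was raised on days 1 and 7 and stood at the sham level on day 3. Its sham arrays read 4.999, 5.04, 5.04 and 4.17, its day 1 arrays 8.16, 7.34, 7.90 and 8.55, and its day 3 arrays 5.03, 4.21, 4.85 and 5.06. Day 1 did not overlap sham, and day 3 did. On day 7 the arrays read 7.60, 8.47, 5.91 and 5.71, with replicates 1 and 2 well above the others. The values were 5.10, 5.56, 6.82 and 5.18 on day 14 and 5.06, 5.87, 5.64 and 5.79 on day 56, all above the highest sham array. Against sham, the log2 change was 3.18 on day 1 (SE 0.50, adjusted p = 2.4e-05), a 9.04-fold higher level, -0.03 on day 3 (adjusted p = 0.97) and 2.11 on day 7 (adjusted p = 0.0022). The changes of 0.85 on day 14 (adjusted p = 0.23) and 0.78 on day 56 (adjusted p = 0.30) were not called. From day 1 to day 3 the level fell by 3.20 (adjusted p = 7.5e-05), and from day 3 to day 7 it rose by 2.14 (adjusted p = 0.0029), a call lost when only these 2 groups were fitted (adjusted p = 0.063).

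Tek, the angiopoietin receptor, was called on no day. In sham, the arrays read 7.34, 7.38, 6.86 and 6.92, the day 1 arrays 6.43, 7.02, 6.47 and 7.96, and the day 3 arrays 7.90, 7.34, 7.37 and 6.88. The values were 6.45, 6.25, 7.02 and 6.91 on day 7, 6.39, 7.01, 5.83 and 6.24 on day 14, and 6.71, 6.08, 5.91 and 6.71 on day 56. Only day 56 lay wholly below sham. The log2 change was -0.76 on day 14 (95% interval -1.43 to -0.09, adjusted p = 0.087) and -0.78 on day 56 (-1.45 to -0.10, adjusted p = 0.079), and the intervals of the earlier days all included 0. The day 56 change was called after quantile normalization (-0.87, adjusted p = 0.041) and with dim probe sets left out (adjusted p = 0.046).

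**Figure D3:**
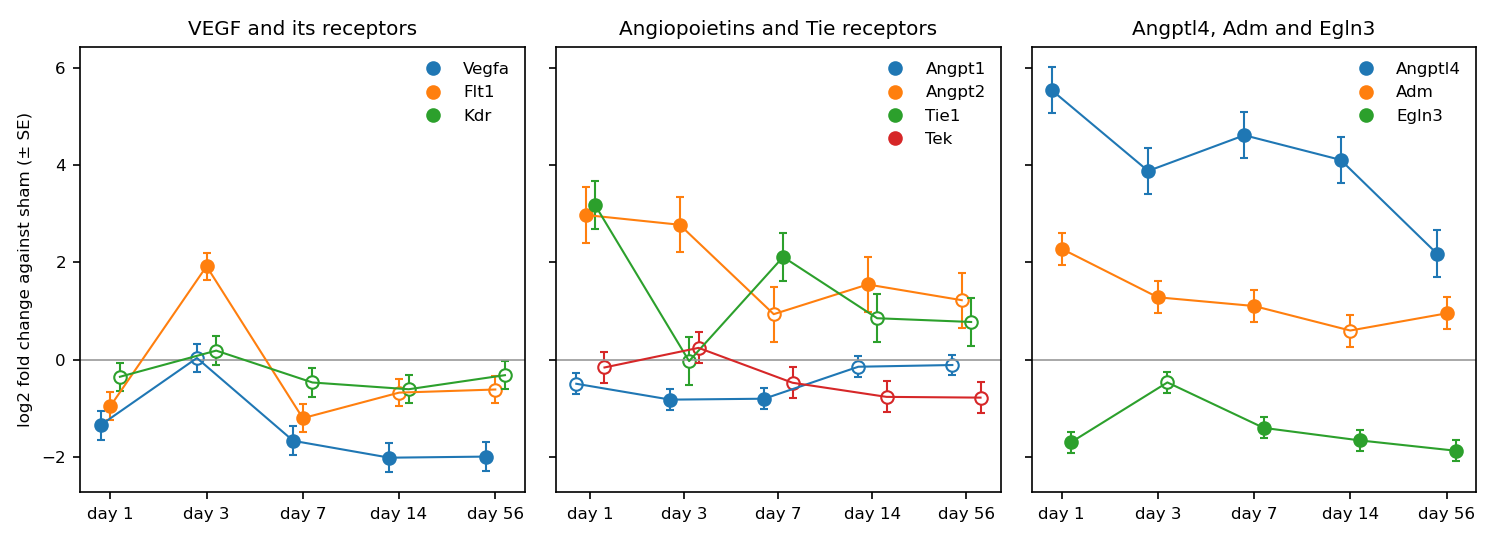
Log2 fold change against sham (y axis, limma estimate ± SE) on days 1, 3, 7, 14 and 56 (x axis, evenly spaced), 4 rats a group; filled points had an adjusted p under 0.05 and open points did not. Flt1 peaks at 1.92 on day 3 where Tie1 is at -0.03, and Angptl4 declines from 5.53 on day 1 to 2.18 on day 56.

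The related genes were then compared within each array, by an exact two-sided permutation test of the 4 injured against the 4 sham arrays on the difference of their log2 values. There were 15 such tests, the smallest p they allow is 0.0286, and 11 of them reached it (0.0390 after adjustment over the 15). This test was added after the values had been seen. Flt1 changed by 1.73 more than Kdr on day 3 and by 0.73 less on day 7, both at the smallest p, while on day 1 (-0.60, adjusted p = 0.264), day 14 (-0.07) and day 56 (-0.29) the arrays overlapped. Both genes were read here from their brightest probe set. The other Flt1 probe sets, not put through this test, changed by 1.26 and 0.59 on day 3, where Kdr changed by 0.19. On day 7 they changed by -0.47 and -1.02, where Kdr changed by -0.46. Tie1 changed by 3.33 more than Tek on day 1, 2.58 on day 7, 1.61 on day 14 and 1.55 on day 56, each at the smallest p. On day 3 their difference was -0.27 (exact p = 0.40). Angpt2 changed more than Angpt1 on all 5 days, by 3.47, 3.59, 1.74, 1.69 and 1.33, each at the smallest p, with the sham level of Angpt2 again limiting the size. All injured Angpt2 arrays already lay above sham, and the Angpt1 mean lay below sham on each day. These 5 tests therefore add little to the changes of the single genes. On day 7 the means of Angpt2 (3.08) and Angpt1 (2.98) both lay below that of the brightest control probe set (3.22).

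**Figure D4:**
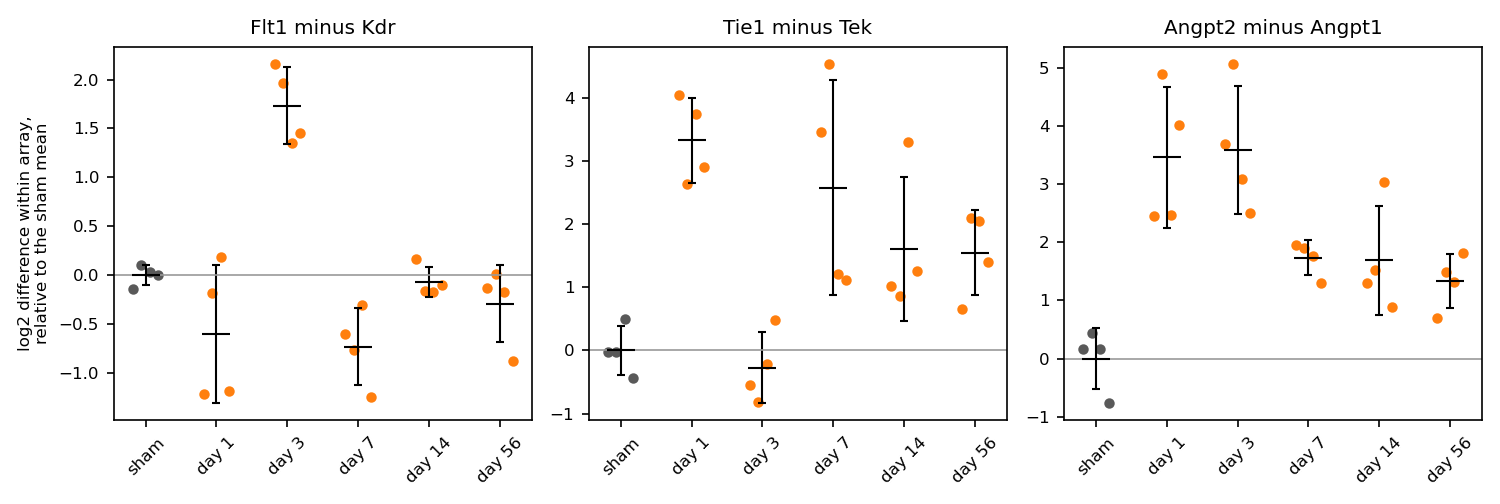
Difference of the log2 values of 2 related genes on the same array, relative to the mean sham difference (y axis, a separate scale in each panel), by group; points are arrays (4 a group), marks are means and error bars SD. Each gene is read from its brightest probe set. Flt1 minus Kdr is raised on day 3 (mean 1.73), Tie1 minus Tek on every day but day 3, and Angpt2 minus Angpt1 on all 5 days.

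Angptl4, a secreted inhibitor of lipoprotein lipase that also acts on vessel permeability, had the largest change of the 10 genes on each of the 5 days. The sham arrays read 3.51, 4.995, 4.13 and 4.41. The injured arrays read 10.26, 9.59, 9.09 and 10.24 on day 1, 9.11, 8.40, 7.43 and 7.62 on day 3, and 9.14, 10.11, 8.22 and 8.03 on day 7. On day 14 they read 7.30, 8.88, 8.89 and 8.40, and on day 56 they read 6.10, 6.77, 6.62 and 6.29. No injured array overlapped sham, and day 56 lay below all arrays of the earlier days. Against sham, the log2 change was 5.53 on day 1 (SE 0.47, adjusted p = 2.4e-08), a 46.3-fold higher level, then 3.88 on day 3 (2.5e-06), 4.61 on day 7 (5.3e-07), 4.11 on day 14 (3.1e-06) and 2.18 on day 56 (adjusted p = 0.0014). The fall from day 1 to day 3 was -1.66 (adjusted p = 0.011). The drop from day 14 to day 56, -1.92, did not pass (adjusted p = 0.13).

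Adm, the vasodilator peptide adrenomedullin, rose on days 1, 3, 7 and 56. In sham, the arrays read 6.85, 6.28, 7.05 and 6.83, the day 1 arrays 9.22, 8.92, 8.31 and 9.69, and the day 3 arrays 8.43, 8.04, 7.42 and 8.26. The values were 8.30, 8.47, 7.55 and 7.12 on day 7, 7.49, 6.69, 7.93 and 7.31 on day 14, and 7.97, 7.44, 7.56 and 7.86 on day 56. Only day 14 overlapped sham, through replicate 2. The log2 change was 2.28 on day 1 (SE 0.33, adjusted p = 9.2e-06), 1.28 on day 3 (0.0042), 1.11 on day 7 (0.012), 0.60 on day 14 (adjusted p = 0.20) and 0.95 on day 56 (0.034). The day 7 call was lost without the 3 arrays of low correlation (0.95, adjusted p = 0.063). The day 56 call was lost without sham replicate 1, 2 or 4 or day 56 replicate 1 or 4 (adjusted p up to 0.11), and after quantile normalization (0.90, adjusted p = 0.054). The fall of 1.00 from day 1 to day 3 (adjusted p = 0.026) was lost without day 1 replicate 1 or 4 or day 3 replicate 2 or 3 (adjusted p up to 0.0996). All neighbouring groups overlapped in the order day 1, day 3, day 7, day 56, day 14 and sham.

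On the 5 days in turn, 28.9%, 23.7%, 23.5%, 15.8% and 16.1% of all genes were called higher. The shares called lower were 20.4%, 16.7%, 30%, 16.3% and 15.9%. No list below was tested against these shares. The counts for the lists of genes that follow include genes whose mean in every group lay below that of the brightest control probe set, 3.22. Such genes made up 1 call on day 1 (Pgf), 1 on day 3 (Notch4) and 10 on day 7, and none on days 14 and 56. On day 7 they were Angpt4, higher by 0.15, and Pgf, Angptl6, Mme, Hif3a, Car12, Stc2, Notch4, Sema3a and Notch3, of which all but Pgf were lower by less than 0.1, so these 10 calls are not read as changes of expression.

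Of 7 other VEGF ligands and receptors measured, 2 rose and 1 fell on day 1, 1 rose and 2 fell on day 3, 1 rose and 1 fell on day 7, 1 rose on day 14 and 2 rose on day 56. Nrp1, which binds VEGF-A and semaphorins, changed by 1.39, -1.12, 2.21, 2.12 and 1.76 on the 5 days, all called. Vegfb, a ligand of Flt1, fell by 1.10 on day 3 (adjusted p = 4.6e-06) and was called on no other day. Nrp2 rose on day 1 (0.64), day 3 (0.98) and day 56 (0.71). Pgf, another ligand of Flt1, lay at the control level, where its changes of -0.36 on day 1 and -0.38 on day 7 were called.

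Of 6 further genes of the angiopoietin and Tie pathway, 3 rose on day 1, 2 on day 3, 3 on day 7, 2 on day 14 and 2 on day 56, and 2, 1 and 1 fell on days 7, 14 and 56. Adam17, a protease that sheds membrane receptors, rose on all 5 days (1.77, 1.04, 1.49, 1.24 and 0.86), as did Foxo1, a transcription factor restrained by Tek signalling (0.77, 0.58, 0.99, 0.91 and 0.56). Ptprb, the phosphatase that removes phosphate from Tek, fell on day 7 (-0.75), day 14 (-1.10) and day 56 (-1.05). Angptl2 rose on day 1 (1.44, adjusted p = 0.0052).

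The receptor of adrenomedullin was measured through Calcrl and its partners. Of the 8 genes of this list, 1 rose on day 1, 1 fell on day 3, 1 rose and 2 fell on day 7, none passed on day 14 and 2 fell on day 56. Ramp1, the partner that turns Calcrl into a receptor for CGRP, fell by 1.39 on day 3 (adjusted p = 8.8e-05). Calcb, which encodes beta-CGRP, rose on day 1 (2.69) and day 7 (1.71) and fell on day 56 (-1.99), while Calca, which encodes alpha-CGRP, changed by -2.04 on day 7 (adjusted p = 0.043) and by -3.85 on day 56 (adjusted p = 0.001). Ramp2 and Ramp3, which make Calcrl a receptor for adrenomedullin, and Calcrl itself were called on none of the days. These 3 were looked up for their role and lie outside the rule for named genes.

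Among 9 regulators of the HIF pathway, 2 rose and 1 fell on day 1, 5 rose and 1 fell on day 3, 3 rose and 2 fell on each of days 7 and 14, and 2 rose and 1 fell on day 56. Hif1a, the oxygen-regulated subunit, rose by 1.07, 1.14, 0.50, 0.27 and 0.30, all called. Cited2, which competes with HIF for its coactivator, rose by 1.41, 1.44, 1.33, 1.21 and 1.46, all called. Vhl, the ligase subunit that recognises the HIF subunits hydroxylated by Egln enzymes, rose by 0.80 on day 3 (adjusted p = 1.8e-07) and by 0.25 on each of days 7 and 14. Arnt2 fell by 1.60, 1.35, 1.01 and 0.60 on days 1, 3, 7 and 14. Egln3 was lower on the 4 days named above, and Hif1a mRNA was higher on all 5.

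The genes known to be induced by hypoxia did not move in one direction. Of 24 measured, 9 rose and 6 fell on day 1, 9 and 4 on day 3, 7 and 7 on day 7, 5 and 6 on day 14, and 5 and 4 on day 56. The median change was 0.12, -0.02, -0.03, 0.03 and -0.02, where the median over all genes was 0.01, -0.04, -0.05, 0.03 and -0.02. Hmox1, which breaks down heme, rose by 8.87, 7.92, 6.52, 5.24 and 5.07, the lipid droplet protein Plin2 by 3.13, 2.18, 2.33, 2.13 and 2.28, and the glycolytic regulator Pfkfb3 by 1.13, 1.60, 0.54, 0.67 and 0.97, all called. Ldha, which makes lactate, rose by 3.25, 2.93, 2.08 and 1.08 on the first 4 days. These genes were named for their smallest adjusted p. Bnip3, of the same list and added after its values were seen, changed by -0.99, -0.56, -0.83, -1.23 and -1.17, all called.

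Genes of endothelial tip cells and Notch signalling, which set the sprouting of new vessels, were called higher in 8, 5, 8, 4 and 7 and lower in 3, 5, 5, 1 and 2 of 16 measured on the 5 days in turn. Apln, the ligand apelin, is not among the genes that the naming rule picks and was added after its values were seen: it changed by 0.21, 2.58, -1.27, -1.56 and -2.85, and the last 4 were called. Its receptor gene Aplnr, also outside the rule, changed by -1.26, -2.48, -1.13, 0.08 and 1.38, and was called on days 1, 3, 7 and 56. Rbpj, the DNA-binding partner of Notch, rose on all 5 days (1.52, 1.02, 1.05, 0.89 and 0.91). Cxcr4, the receptor of Cxcl12 and also present on leukocytes, rose on days 1, 7, 14 and 56 (3.91, 3.07, 3.40 and 3.80) and had a change of 0.93 on day 3 (adjusted p = 0.12). The urokinase receptor Plaur rose on days 1, 3, 7 and 56 (5.10, 4.21, 2.96 and 2.11) from a sham level near the control probe sets. The Notch target Hey1 fell on days 1, 3 and 7 (-1.74, -1.40 and -0.78). Hes1 and Hey2 of the same list, both outside the rule and added after their values were seen, went opposite ways. Hes1 rose on all 5 days (1.78, 0.94, 1.29, 0.82 and 1.39, all called), and Hey2 fell on days 1 and 3 (-1.47 and -1.21).

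Endogenous inhibitors of angiogenesis were called higher in 6, 4, 7, 7 and 5 of 11 measured genes, and lower in 0, 1, 1, 0 and 0, where the gene lower on day 7 was Sema3a, at the control level. Thbs2, a matrix protein that restrains endothelial growth, rose by 4.82, 5.52, 4.41, 3.47 and 1.87, and Adamts1, a protease that releases thrombospondin fragments and binds VEGF, by 3.62, 4.05, 2.38, 2.04 and 1.66. Vash1, vasohibin, rose by 0.98, 0.81, 1.00, 0.54 and 0.32, and the platelet chemokine Pf4 by 4.03, 2.44, 3.24, 2.78 and 3.25. All of these were called.

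Markers of the cells that make these transcripts moved as well. Of 23 endothelial markers measured of 27 listed, 10 rose and 2 fell on day 1, 7 and 4 on day 3, 3 and 5 on day 7, 4 and 2 on day 14, and 3 and 3 on day 56. The mean of the list ran from 5.87 to 6.07 on the sham arrays, from 6.34 to 6.81 on day 1, from 5.90 to 6.61 on day 3 and between 5.86 and 6.23 on the 3 later days. Sox7, an endothelial transcription factor, rose by 1.94 on day 1, 4.34 on day 3 and 1.35 on day 14, Eng (endoglin) rose on all 5 days (3.07, 1.72, 1.87, 1.38 and 1.06), and Pecam1 rose on day 1 (1.38) and day 3 (1.75). Slco1c1, a transporter of brain endothelium, changed by -3.08 on day 1 and -4.57 on day 3, the tight junction gene Ocln by -2.61 on day 3 and 0.81 on day 7, and the efflux pump Abcb1a by -0.69, -1.06, -0.71 and -0.56 on days 1, 3, 7 and 56, all called. These 3 were added after their values were seen. Egfl7, Mfsd2a, She, Tal1 and Clec14a were dim, and Cdh5, Robo4, Cd34 and Ushbp1 were not analysed here. The part of endothelial content in the changes of Flt1, Tie1 and Angpt2 was not tested.

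Neuronal markers, like Vegfa and Egln3, lay closest to sham on day 3, but the other days differed. The mean of the neuronal list was 8.22 on day 1 and 10.09 on day 56. Vegfa had means of 6.84 and 6.19 on these days, and Egln3 6.38 and 6.21. All 8 neuronal markers fell on days 1, 7 and 14, 7 fell on day 56 and 1 fell on day 3. Over the arrays their mean ran from 12.0 to 12.4 in sham, 6.80 to 9.17 on day 1, 11.0 to 11.6 on day 3, 8.44 to 11.1 on day 7, 7.38 to 10.4 on day 14 and 9.12 to 10.8 on day 56. Astrocyte markers, of which 7, 6, 5, 3 and 2 of 8 fell on the 5 days, had a mean of 8.04 to 8.90 on day 1 and of 8.62 to 9.04 on day 3. The part of neuronal content in the changes of Vegfa and Egln3 was not tested.

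Macrophage and microglial markers were called higher in 8, 6, 8, 8 and 8 of 9 and lower in 1 on day 3, and their mean was 6.18 to 8.21 in sham, 11.2 to 11.5 on day 1, 9.32 to 9.93 on day 3 and 10.2 to 11.7 on day 7. Within day 7, their mean was highest on replicates 2 (11.7) and 1 (11.3), the arrays where Tie1 read 8.47 and 7.60, and lower on replicates 4 (10.9) and 3 (10.2), where Tie1 read 5.71 and 5.91. Fibroblast markers rose in 4, 0, 5, 6 and 5 of 9 and fell in 6 on day 3. Pericyte and smooth muscle markers rose in 5, 2, 4, 3 and 4 of 13 and fell in 1, 3, 3, 1 and 1, neutrophil markers rose in 2, 2, 1, 0 and 0 of 5, and oligodendrocyte markers fell in 7, 4, 4, 4 and 6 of 7. The part of these cells in the results was not tested.

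**Figure D5:**
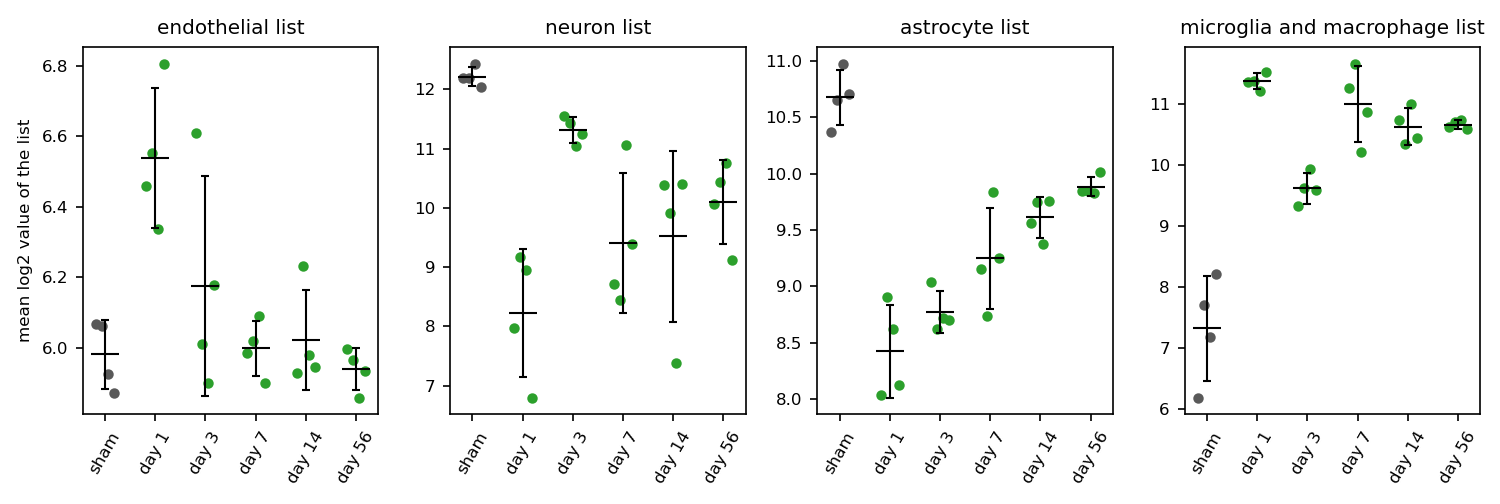
Mean log2 value of 4 marker lists on every array (y axis, a separate scale in each panel), by group; points are arrays (4 a group), marks are means and error bars SD. The neuronal list is closest to sham on day 3 (11.0 to 11.6), and the macrophage list is lower on day 3 (9.32 to 9.93) than on day 1.

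The genes whose values over the 24 arrays were most like those of each member were sought among 9234 genes, as a description only, since the arrays share groups and pre-processing. The 3 nearest to Flt1 were Pdp1 (r = 0.915), the glucose transporter Slc2a3 (0.913) and the basement membrane protein Tinagl1 (0.905), and Tinagl1 changed by 4.31 on day 3 and by no more than 0.11 in size on the other days. The nearest to Tie1 were Slc38a6 (0.955), Aldh3b1 (0.941) and Dok3 (0.939), an adaptor of blood cells. Angptl4 was nearest to the basement membrane collagen Col4a1 (0.945), followed by Dynlt1 and Lrp10 (both 0.929). Angpt2 was nearest to thrombomodulin, Thbd (0.845), with Snx7 (0.839) and Btg3 (0.833). Adm was nearest to Mgst2 (0.911), Snx8 (0.906) and Nit1 (0.901). Vegfa was nearest to Huwe1 (0.929), Btbd10 (0.921) and Cables2 (0.914), and Egln3 to Acly (0.951), the mitochondrial carrier Slc25a12 (0.947) and the synaptic septin Septin5 (0.946). Kdr was nearest to Tek (0.713), Tek to Mrs2 (0.777) and Angpt1 to Plch1 (0.817), all lower values than for the other members.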

How the data were processed

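Expression was measured on 24 arrays in 6 groups of 4 rats, grouped by the sample labels. The deposited values are log2 expression summaries that the authors made with GCRMA (affy 1.12.2 per the submitters' notes), for each time point separately by the methods. No normalization was added. Of 31099 probe sets, 20832 carry 1 symbol in the platform annotation, 436 several and 9831 none.

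All probe sets were fitted with limma 3.58.1 in R 4.3.3 (lmFit, contrasts and eBayes without trend, 6 groups, 18 residual degrees of freedom), and Benjamini-Hochberg adjustment ran over the probe sets with 1 symbol. Pairs of members, correlations, promoter motifs and plots were made in Python 3.11.15 with numpy 2.4.6, pandas 2.3.3, scipy 1.17.1 and matplotlib 3.10.9. The fit was tested on simulated data.

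The members and lists were chosen with earlier results of these data known. Beside the members, up to 4 genes of each pathway list and 3 of some marker lists were named by smallest adjusted p, and the 3 most correlated genes of a member. Promoters are RefSeq's (GRCr8), found for 7 of the 10 members. Alternatives were a fit of 2 groups, a t-test without eBayes moderation (adjusted and unadjusted), eBayes with trend and robust, median centring, quantile normalization, a filter (group mean of at least 5), a replicate block, the mean of probe sets, 3 arrays left out and each array left out. Precision is limited by 4 arrays a group and, for Angpt1 and Angpt2, by signal near the control probe sets.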

Additional observations from a re-analysis of the deposited data

Results flagged for a closer look

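In 5 of the 60 groups of 4 arrays (10 genes in 6 groups) 1 array stood far from the others, where chance gives about 5% of groups. These were Vegfa on day 7 (replicate 4, lowest at 6.01), Flt1 on day 56 (replicate 4, lowest at 5.27), Kdr on day 3 (replicate 4, lowest at 5.91), Tie1 in sham (replicate 4, lowest at 4.17) and Angpt2 on day 14 (replicate 3, highest at 5.38).

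The effect of injury differed between neighbouring days for 12 of the limma contrasts of these genes. From day 1 to day 3 the log2 difference was 1.38 for Vegfa, 2.87 for Flt1 and 1.23 for Egln3, and it was -3.20 for Tie1, -1.66 for Angptl4 and -0.997 for Adm. From day 3 to day 7 it was 2.14 for Tie1, and it was -1.70 for Vegfa, -3.12 for Flt1, -1.84 for Angpt2 and -0.93 for Egln3. From day 7 to day 14 it was 0.66 for Angpt1. Each day was also pre-processed apart from the others, and the 2 cannot be told apart.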

How the results depend on the processing

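Over all alternatives no called change of the 10 genes turned its direction. The counts that follow cover every contrast with sham, but only those contrasts between days that the main fit called. Calls gained in the other contrasts between days are therefore not among them. Apart from single arrays left out, 580 of the recomputed changes kept their side of the threshold, 14 lost the call and 14 gained it. With single arrays left out these numbers were 473, 20 and 3. On day 3, the filter on low values left 3 genes called in place of 5, since Angpt1 and Angpt2 were filtered out. From day 7 to day 14, where 1 gene was called, the count was 0 after quantile normalization, median centring, the filter or leaving out 3 arrays. It was 2 by the t-test without eBayes moderation and without adjustment. From day 14 to day 56 that test called 1 in place of 0. With single arrays left out the count ran from 7 to 8 on day 1, was 5 on day 3 and 7 on day 7, ran from 3 to 4 on days 14 and 56, from 5 to 6 between days 1 and 3, from 4 to 5 between days 3 and 7 and from 0 to 2 between days 7 and 14, and was 0 between days 14 and 56. The replicate numbers did not pair the rats (median correlation of same-numbered deviations 0.004, over 0.1 in 12 of 60 pairs), and the replicate block changed 1 call, Angpt2 on day 14, leaving counts of 7, 5, 7, 3 and 4 on the 5 days. Quantile normalization and median centring moved the median of all genes by under 0.1. Values near the control probe sets limit the sizes for Angpt1 and Angpt2.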
